A study of Mus musculus with 6 samples.

Results

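The genes described here are 10 mouse genes that mark pericytes and smooth muscle cells, the mural cells that wrap blood vessels. They were taken by symbol from the mouse table of a tumour RNA-seq study, where they are 10 of 55536 named genes, and all 10 passed the filter on low counts that left 14459 genes for testing. Of these, 6 are here called the pericyte genes (Rgs5, Pdgfrb, Cspg4, Notch3, Abcc9 and Kcnj8) and 4 the contractile genes (Acta2, Tagln, Myh11 and Cnn1). The tumours grew under the skin of male nude mice, which lack a thymus and so most T cells, after injection of DU145, an established human prostate cancer line. The control group held 3 tumours (libraries NC10, NC4 and NC9) and the group labelled Zelnorm held 3 tumours (MBZ_254, MBZ_257 and MBZ_259), from mice given Zelnorm by mouth every day. Zelnorm is tegaserod, an agonist of a serotonin receptor. The sample titles call this group MBZ, which no source used here explains, and neither the dose nor the age of the mice is given. Each tumour was read in a human and a mouse table, so the mouse table is meant to hold the host's vessels, connective tissue and blood cells. It held 5817165 to 9228445 counts per tumour. Since no label ties a tumour to an animal, a p-value here measures the spread between these samples.

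Pericytes sit on capillaries and small venules, and smooth muscle cells ring arteries and larger veins. Endothelial cells release the growth factor PDGF-B, which recruits mural cells through the receptor encoded by Pdgfrb, and Notch ligands on endothelial cells signal to NOTCH3 on the mural cell. The contractile genes are driven by serum response factor with its partner myocardin. In tumours, several of these markers, among them Pdgfrb, Acta2 and Tagln, are also made by fibroblasts, so that a level in whole tumour RNA does not belong to mural cells alone. Fewer cells of a type and less RNA per cell cannot be told apart in such data.

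Promoter sequences were looked at for the short motif TGGGAA, the core bound by RBPJ, because NOTCH3 acts through that protein. RefSeq windows of GRCm38.p6, from 250 bases before to 50 after a gene's start, were searched for 7 of the 10 genes. Pdgfrb was left out of the search, and no windows of Tagln and Myh11 were at hand. The motif was searched on both strands and was found in 3 of the 7 windows, while 25.6% of all 32851 windows held it. The matches of these 3 genes are shown with 12 bases on either side, on the strand of the gene, with the motif in capitals, so that a reader can compare their surroundings.
Abcc9: ggtggtcctgaaTGGGAAtggccggagtga
Kcnj8: aatccgggctacTGGGAAccgagctggctc
Acta2: ttgctccttgttTGGGAAgcgagtgggagg
The stretch of Abcc9 is chr6:142702478-142702507, with the motif 221 bases before the start. That of Kcnj8 is chr6:142571597-142571626, with the motif beginning at the first transcribed base. That of Acta2 is chr19:34255383-34255412, with the motif 27 bases before the RefSeq start but inside the span of the gene in GENCODE. All 3 are on the minus strand. The 3 matches lay at different distances from the start, and the bases around them differed. The windows of Rgs5, Cspg4, Notch3 and Cnn1 did not hold these letters. The CArG box, the site of serum response factor, was searched in its strict form and matched in 0 of the 7 windows and in 1.63% of all windows. Forms with a changed base were not searched. The Acta2 stretch shown here holds such a form, ccttgttTGG, whose last letters open the marked motif. A match or its absence in such a window is a description and not a site.

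None of the 10 genes passed the comparison of Zelnorm with control tumours in edgeR's quasi-likelihood test. The number called was 0 of 10 (adjusted p = 1.00 for each), beside 0% of all 14459 tested mouse genes, and 0 of 10 had an unadjusted p under 0.05, beside 1.75% of all. DESeq2 and limma-voom also called 0 of the 10. Relative to control, 6 genes lay higher and 4 lower in the Zelnorm tumours, beside 53.9% higher and 46.1% lower of all tested genes. The median log2 fold change (Zelnorm over control) was 0.02 over the 10 genes and 0.02 over all tested genes. It was 0.02 for the pericyte genes and -0.04 for the contractile genes. Leaving out MBZ_254 moved the median of the 10 genes to -0.21. With 1 tumour left out in turn, the median ranged from -0.23 (without MBZ_254) to 0.24 (without MBZ_257) for the pericyte genes and from -0.23 (without NC9) to 0.13 (without NC4) for the contractile genes, so that neither kept its sign.

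Levels are given as CPM, counts scaled to the total of the tested genes of the same table times its TMM factor. Values of single tumours stand in the order NC10, NC4, NC9 for the controls and MBZ_254, MBZ_257, MBZ_259 for the Zelnorm tumours.

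**Figure D1:**
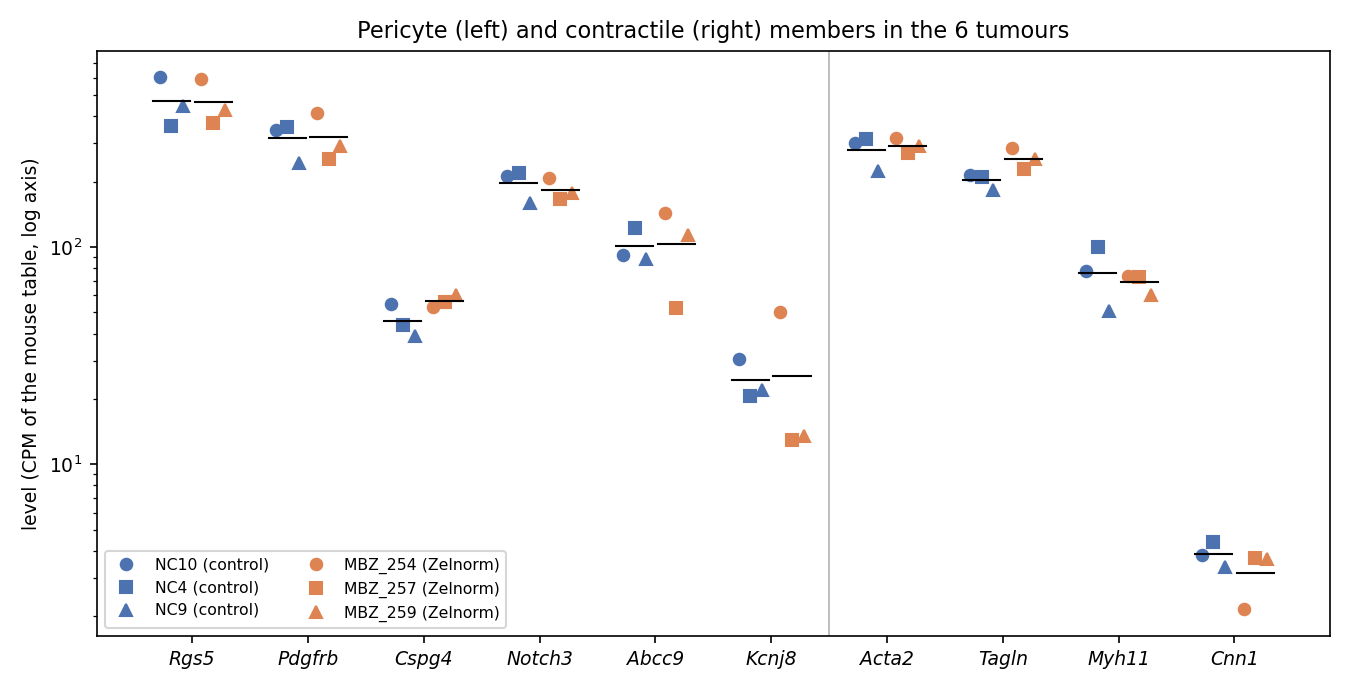
Level of each gene in each tumour, in CPM of the mouse table on a log axis, with one symbol per tumour and a black line at the mean of each group of 3. Blue and orange symbols are interleaved for every gene but Tagln, whose 3 Zelnorm tumours lie at 228 to 285 CPM and whose controls lie at 184 to 215 CPM.

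Rgs5, which speeds the shut-off of G protein signals and is a mark of tumour pericytes (ENSMUSG00000026678, chromosome 1 from 169655501 to 169695813 in GRCm38, plus strand), had the highest CPM of the 10. Rgs5 was at 604, 359 and 444 CPM in the controls and at 592, 370.2 and 427 CPM in the Zelnorm tumours. Each group thus held 1 tumour (NC10 and MBZ_254) well above its other 2, and the groups overlapped almost fully. Between groups the log2 fold change was -0.02 (SE 0.26, 95% interval -0.61 to 0.58). Without NC10 it was 0.19, and over all alternatives tried it lay on both sides of 0.

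Pdgfrb encodes the PDGF receptor beta, through which endothelial PDGF-B holds pericytes on the vessel (ENSMUSG00000024620). It was at 347, 359 and 243 CPM in the controls and at 412, 255 and 291 CPM in the Zelnorm tumours. The highest and the second lowest values were both Zelnorm tumours, and the group means of 316 ± 63.6 and 320 ± 82.1 CPM (SD, n = 3 each) lay well within that spread. Its log2 fold change was 0.01 (SE 0.24, 95% interval -0.54 to 0.57).

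Cspg4 encodes the NG2 proteoglycan, a surface protein of pericytes on growing vessels (ENSMUSG00000032911, chromosome 9 from 56865033 to 56899870, plus strand). The controls had 54.8, 43.7 and 38.9 CPM and the Zelnorm tumours 53.0, 55.7 and 60.1 CPM. The Zelnorm tumours were tightly grouped, and the control NC10 lay among them. The log2 fold change of 0.30 (SE 0.17, 95% interval -0.09 to 0.68) did not pass (edgeR adjusted p = 1.00).

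Notch3, the Notch receptor of mural cells (ENSMUSG00000038146, chromosome 17 from 32120820 to 32166852, minus strand), was at 212, 220 and 159 CPM in the controls and at 207, 166 and 177 CPM in the Zelnorm tumours. Its highest and its lowest value were both controls. The difference between groups was -0.10 on the log2 scale (SE 0.19, 95% interval -0.53 to 0.33).

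Kcnj8 and Abcc9 encode the pore (Kir6.1) and the regulatory subunit (SUR2) of a potassium channel that closes on ATP and relaxes vessels when it opens. The genes lie next to each other on the minus strand of chromosome 6 (Kcnj8, ENSMUSG00000030247, from 142564837 to 142571614; Abcc9, ENSMUSG00000030249, from 142587862 to 142702315), with 16247 bases and 0 annotated genes between them. Abcc9 was at 91.9, 122 and 88.4 CPM in the controls and at 143, 52.5 and 113 CPM in the Zelnorm tumours. Kcnj8 was at 30.5, 20.7 and 22.1 CPM in the controls and at 50.2, 13.0 and 13.5 CPM in the Zelnorm tumours. For both genes MBZ_254 was the highest of the 6 tumours and MBZ_257 the lowest. In MBZ_259 they parted, Abcc9 being above its mean over the tumours and Kcnj8 below it, so that there were 0.119 Kcnj8 counts per Abcc9 count after scaling, against 0.35 in MBZ_254.

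These neighbours varied most of the 10 genes among the Zelnorm tumours. The highest Zelnorm tumour had 3.87 times the Kcnj8 level and 2.73 times the Abcc9 level of the lowest, whereas the controls spanned 1.47 and 1.39 times. The log2 fold change was 0.07 for Kcnj8 (SE 0.51, 95% interval -1.10 to 1.24) and 0.03 for Abcc9 (SE 0.34, 95% interval -0.75 to 0.81). That of Kcnj8 rested on MBZ_254: without it the value was -0.89 (unadjusted p = 0.00558, edgeR adjusted p = 0.75), and that of Abcc9 was -0.29. The Kcnj8 values rest on 70 to 395 counts per tumour.

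Acta2, the actin of smooth muscle (ENSMUSG00000035783, chromosome 19 from 34241090 to 34255590, minus strand), was at 301, 315 and 224 CPM in the controls and at 316, 269.9 and 292 CPM in the Zelnorm tumours. The control NC9 was the lowest and the remaining 5 tumours lay close together, with a log2 fold change of 0.06 (SE 0.18, 95% interval -0.36 to 0.49).

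Tagln, which encodes the actin-binding protein transgelin (ENSMUSG00000032085, chromosome 9 from 45929619 to 45936058, minus strand), was the one gene of the 10 whose groups did not overlap, beside 5.52% of all tested mouse genes. The controls were at 215, 210.4 and 184 CPM and the Zelnorm tumours at 285, 228 and 253 CPM. All 3 Zelnorm tumours thus lay above all 3 controls, as they did for 2.52% of all tested mouse genes. The log2 fold change of 0.33 (SE 0.16, 95% interval -0.04 to 0.71) did not pass (unadjusted p = 0.0767, edgeR adjusted p = 1.00), and with 1 tumour left out in turn it stayed between 0.24 and 0.42. Tagln overlaps 2 genes of the opposite strand, the protease gene Pcsk7 with 236 to 435 counts per tumour and the antisense transcript Gm48529 with 27.5 to 49.0. No source used here says whether counting used the strand, so reads of these genes cannot be told apart from those of Tagln, which had 1235 to 2240 counts.

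Myh11, the myosin heavy chain of smooth muscle and the most specific gene of the contractile set (ENSMUSG00000018830, chromosome 16 from 14194535 to 14291372, minus strand), was at 77.8, 99.9 and 50.7 CPM in the controls and at 73.8, 72.9 and 60.5 CPM in the Zelnorm tumours. The controls NC4 and NC9 bracketed every other tumour, and the log2 fold change was -0.14 (SE 0.24, 95% interval -0.70 to 0.42), and it was 0.10 without NC4.

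Cnn1, calponin of smooth muscle (ENSMUSG00000001349, chromosome 9 from 22099216 to 22109630, plus strand), was the lowest of the 10, with 17 to 34 counts per tumour. It was at 3.85, 4.41 and 3.37 CPM in the controls and at 2.16, 3.70 and 3.66 CPM in the Zelnorm tumours. Only MBZ_254 fell outside the range of the controls, on the low side, and the log2 fold change was -0.29 (SE 0.35, 95% interval -1.09 to 0.51).

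**Figure D2:**
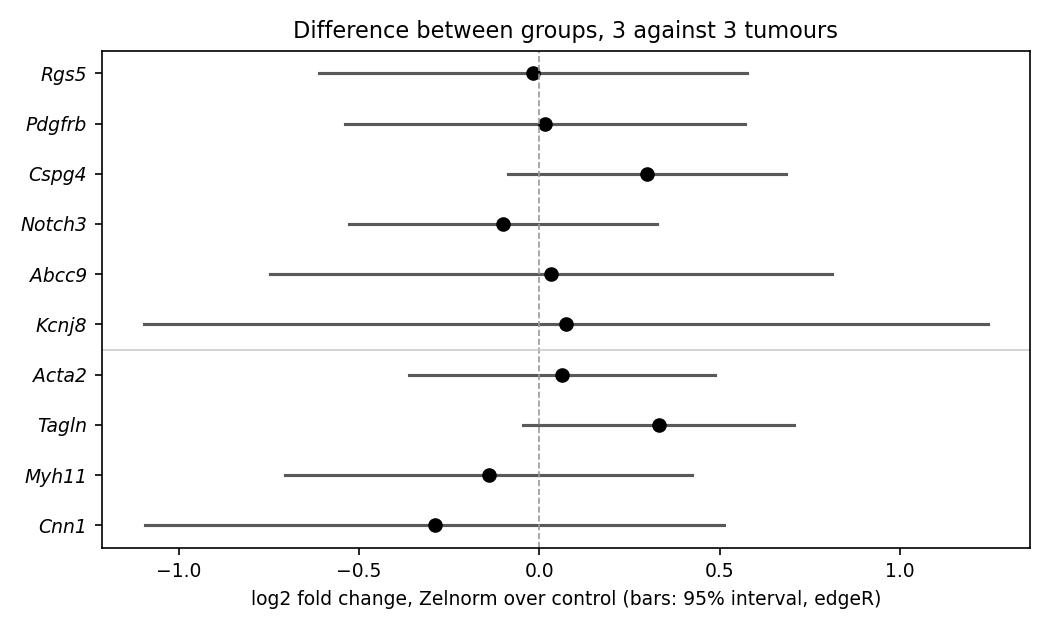
Log2 fold change of each gene, Zelnorm over control, as a point with its 95% interval from edgeR as a bar, for 3 against 3 tumours. All 10 bars cross 0, and the bar of Kcnj8, from -1.10 to 1.24, is the longest of the 10.

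Levels of different genes were compared per kilobase of merged exons, on the CPM scale. Averaged over the 6 tumours, Acta2 stood at 130.4, Tagln at 115 and Rgs5 at 103 CPM per kilobase. The ranges of these 3 genes over the tumours overlapped (102 to 144, 92.5 to 143 and 79.0 to 133), so their order is not fixed by these data. Pdgfrb at 58.0 (range 44.4 to 75.2) lay below every value of Rgs5, and Notch3 at 23.5 (19.6 to 27.2) below every value of Pdgfrb. Abcc9 at 12.2, Kcnj8 at 9.80 and Myh11 at 9.55 CPM per kilobase overlapped with each other. Cspg4 at 4.28 lay below every value of these 3, and Cnn1 at 1.29 was the lowest. Within the contractile set, the broadly expressed Acta2 and Tagln therefore stood far above Myh11 and Cnn1, which are more restricted to differentiated smooth muscle.

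Except for Cspg4 and Tagln, the spread within a group was larger than the difference between the groups. The within-group SD on the log2 scale (prior count 2) was 0.80 for Kcnj8 and 0.56 for Abcc9, above the 90th percentile, 0.48, of all 9756 tested mouse genes of at least 10 CPM. It was 0.14 for Tagln, 0.19 for Cspg4, 0.20 for Acta2 and 0.22 for Notch3, below the median of those genes, 0.25. Rgs5, Pdgfrb and Myh11 lay between, at 0.36, 0.33 and 0.37. MBZ_254 had the highest level of the 6 tumours for 5 of the 10 genes and the lowest for Cnn1, and NC4 had the highest for 3. NC9 had the lowest level for 6 genes and MBZ_257 for Abcc9 and Kcnj8.

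**Figure D3:**
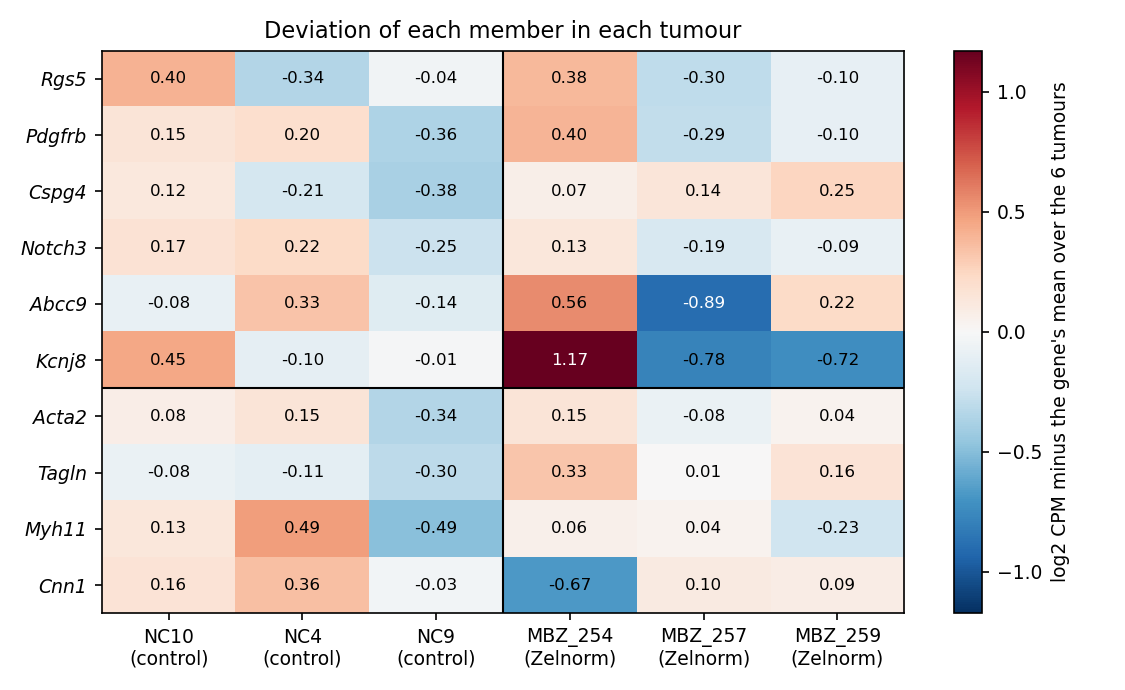
Log2 CPM of each gene in each tumour minus the mean of that gene over the 6 tumours, with red above and blue below the mean; controls are left and Zelnorm tumours right of the vertical line, pericyte genes above and contractile genes below the horizontal line. Kcnj8 runs from 1.17 in MBZ_254 to -0.78 in MBZ_257, while Cnn1 is at -0.67 in MBZ_254, where the other 9 genes lie above their means.

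The genes closest to each other were not always of the same set, pericyte or contractile. By the root mean square difference of their centred log2 CPM over the 6 tumours, the closest pair was Notch3 and Acta2 (0.09), one from each set, and Pdgfrb was closest to Notch3 (0.13). Cspg4 and Tagln, again one from each set, differed by 0.16. Kcnj8 and Cnn1 were the farthest apart (0.90). This measure grows with a gene's spread as well as with a difference in shape, so it does not settle whether the sets share a profile. The ratio of Rgs5 to Pdgfrb CPM was 1.74 in NC10, 1.00 in NC4 and 1.83 in NC9, and 1.44, 1.45 and 1.46 in the Zelnorm tumours. NC4 thus had little Rgs5 for its Pdgfrb, and the Zelnorm tumours were close to one another in this ratio.

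Among genes outside the set, the 5 closest to the mean profile of the pericyte genes by the same measure were Rxylt1, Ghdc, Cdkn1b, Syf2 and Ercc5 (0.06 each, of 14449 genes). Members of a list of other pericyte genes were also close: Mcam, Gucy1b1, Ednra and Cald1, 4 of 19, were among the nearest 1% of genes. For the contractile genes the closest were Grk6, Rbm22, Gdpd1, Mien1 and Nup214 (0.04 to 0.05). Of 28 other smooth muscle genes, 0 were among the nearest 1%. The contractile mean gave Cnn1, with 17 to 34 counts per tumour, the same weight as the other genes. In MBZ_254 Cnn1 was at -0.67 from its mean, and Acta2, Tagln and Myh11 were at 0.15, 0.33 and 0.06 (log2 scale). With 6 tumours the ranking rests on few points, and it describes these libraries only.

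Other mural genes from fixed lists were not called either. Of the 19 tested genes of the other pericyte list 7 lay higher and 12 lower, 0 were called, and the median log2 fold change was -0.05. Cald1, an actin-binding protein, was at 400.1 ± 38.5 CPM in the controls and 397 ± 98.2 CPM in the Zelnorm tumours (SD, n = 3). Mcam, an adhesion molecule of vessels, was at 288 ± 35.1 and 306 ± 81.0 CPM. Cd248, endosialin of pericytes and fibroblasts, was at 156 ± 45.1 and 115 ± 36.8 CPM (log2 -0.44, SE 0.30). Higd1b, a pericyte gene outside the naming rule and noticed for its values, was the 1 gene of these 19 whose groups did not overlap, beside 5.52% of all tested mouse genes. It was at 5.45, 3.76 and 4.24 CPM in the controls and 5.46, 7.77 and 6.17 CPM in the Zelnorm tumours, so that NC10 and MBZ_254 were all but equal.

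Of 28 tested genes of the other smooth muscle list 18 lay higher and 10 lower, 0 were called, and the median log2 fold change was 0.04. Myl6, a myosin light chain found in most cells, was at 2136 ± 182 and 2399 ± 574 CPM, and Cnn2, a calponin of non-muscle cells, at 211 ± 19.5 and 215 ± 16.0 CPM. Tpm1, a tropomyosin that striated muscle also makes, was at 576 ± 9.03 and 595 ± 249.8 CPM. Myocd, which encodes myocardin and was named after its value was seen, was at 2.06 ± 0.23 and 1.81 ± 0.77 CPM. Its partner gene Srf was at 88.7 ± 4.84 and 106 ± 23.6 CPM.

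Ligands and receptors around the set also did not pass. Of 6 PDGF genes 2 lay higher and 4 lower, with Pdgfb, the ligand of PDGFRB, at 65.3 ± 4.86 CPM in the controls and 66.3 ± 6.93 CPM in the Zelnorm tumours. Pdgfra, the receptor of fibroblasts, was at 134 ± 47.6 and 100.1 ± 35.2 CPM. Pdgfa, named for its values, was the 1 gene of these 6 whose groups did not overlap, beside 5.52% of all tested mouse genes. It was at 24.7, 21.5 and 18.7 CPM in the controls and 28.2, 28.7 and 24.8 CPM in the Zelnorm tumours. Its log2 fold change was 0.33 (SE 0.17). Of 16 Notch pathway genes 7 lay higher and 9 lower (median log2 fold change -0.01). Rbpj, the DNA-binding partner of Notch, was at 93.4 ± 11.4 and 83.9 ± 8.76 CPM, and the Notch target Heyl at 45.7 ± 7.20 and 45.3 ± 7.17 CPM. Among 5 channel genes, Cacna1c, the pore of a calcium channel of muscle, had 27.3, 24.0 and 23.9 CPM in the controls. It had 44.8, 30.2 and 28.1 CPM in the Zelnorm tumours (log2 0.46, SE 0.21), and its groups did not overlap either. Kcnma1 had a log2 fold change of -0.55 (SE 0.30). Kcnj11, which encodes the related pore Kir6.2 of striated muscle and was named for its values, was at 10.9 CPM in MBZ_259 and at 0.762 to 5.57 in the other tumours. Of 8 angiopoietin and sphingosine phosphate genes 4 lay higher and 4 lower, with Angpt2, which loosens the contact of mural and endothelial cells, at 44.7 ± 17.2 and 57.5 ± 26.4 CPM. The log2 fold change was 0.37 for Angpt2, -0.20 for Tie1 and 0.05 for S1pr1.

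Mural genes were also set against endothelial genes of the same tumour, as a rough measure of mural cover. The summed CPM of the 6 pericyte genes divided by that of 15 endothelial genes was 0.883 in NC10, 0.496 in NC4 and 0.604 in NC9, and 0.723, 0.731 and 0.617 in the Zelnorm tumours. The controls bracketed the Zelnorm tumours on both sides, with group means of 0.661 ± 0.20 and 0.69 ± 0.06 (SD, n = 3). The summed pericyte CPM alone was 1153 ± 174 in the controls and 1151 ± 279 in Zelnorm tumours. For the contractile genes the sums were 563 ± 88.8 and 620.4 ± 51.9 CPM. Of the endothelial genes themselves 4 lay higher and 11 lower (median log2 fold change -0.10), with the adhesion genes Pecam1 at 292 ± 76.4 and 272 ± 73.4 CPM and Cdh5 at 273 ± 65.4 and 258 ± 82.0 CPM.

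**Figure D4:**
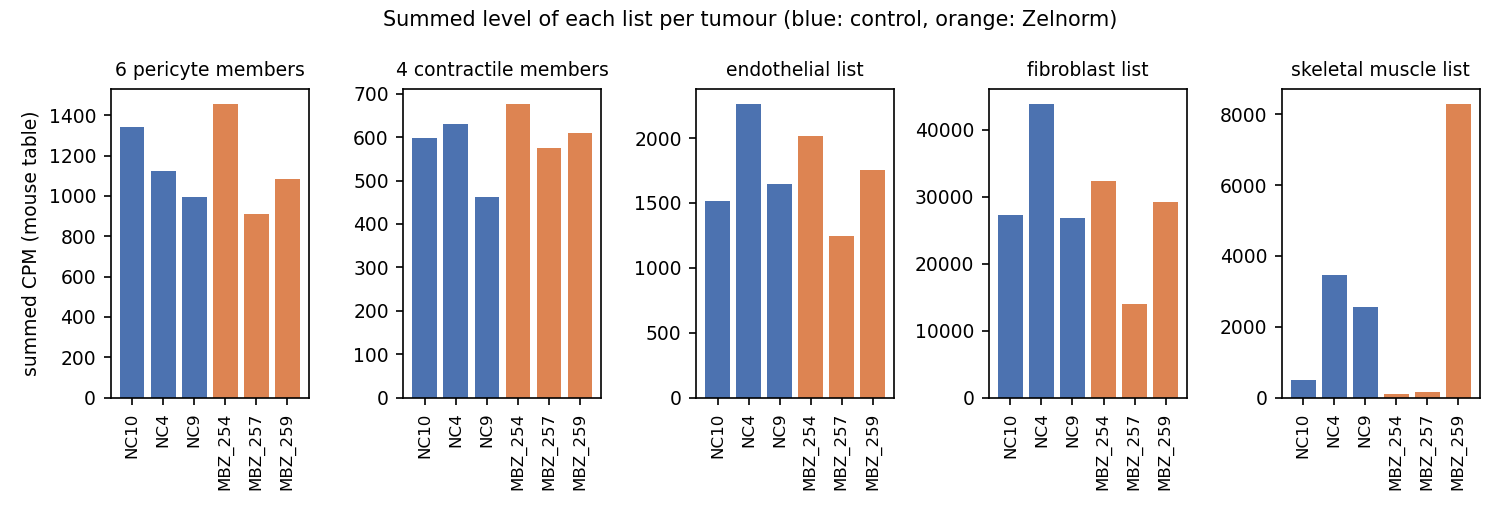
Summed CPM of the mouse table for the 6 pericyte genes, the 4 contractile genes and the endothelial, fibroblast and skeletal muscle lists in each tumour, with controls in blue and Zelnorm tumours in orange and a separate axis for each list. The pericyte sum ranges over 1.60 times between the highest and the lowest tumour and the skeletal muscle sum over 96.3 times.

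Genes of other cell types moved between tumours as well. The summed level of 15 skeletal muscle genes was 491, 3446.5 and 2558 CPM in the controls and 86.1, 158 and 8296 CPM in MBZ_254, MBZ_257 and MBZ_259. Several defining muscle genes were at or near 0 in MBZ_254 and MBZ_257, with Myh4, a fast muscle myosin, at 0 and 0.74 CPM, and most of the sum there was Acta1, the actin of skeletal muscle, at 67.8 and 135 CPM. In MBZ_259 these genes were at 1209 and 2121 CPM. The part of muscle tissue in the levels of the 10 genes was not tested. Leaving the skeletal muscle genes out of the library totals changes only the scaling, and the log2 fold changes of Acta2, Tagln and Myh11 were then 0.06, 0.33 and -0.14. In the other smooth muscle list, 2 genes were singled out after their values were seen: Des, desmin of all muscle, was at 26.3, 21.5 and 555 CPM in the Zelnorm tumours and Hspb1 at 23.0, 18.3 and 155 CPM. Both were highest in MBZ_259, which had the highest muscle sum, and the part of muscle in these values was not tested.

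Of 11 fibroblast genes, whose cells share several of the markers, 10 lay lower, beside 46.1% of all tested genes. Of these genes 0 were called, and the median log2 fold change was -0.42. The collagen gene Col3a1 was at 11504 ± 4662 and 7919 ± 3517 CPM. Log2 fold changes were -0.54 for Col3a1, -0.30 for Col1a2 and -0.26 for Col1a1. The fibroblast list summed to 27217, 43862 and 26741 CPM in the controls and 32277, 13933 and 29220.4 CPM in the Zelnorm tumours. MBZ_257 had the least fibroblast, endothelial and pericyte signal of the 6 tumours, while its contractile sum, 575 CPM, was not the lowest. Of 8 tested fat cell genes 8 lay lower in the Zelnorm tumours, beside 46.1% of all tested genes, and 0 were called. Their median log2 fold change was -2.00, with sums of 239 to 677 CPM in the controls and 111 to 256 CPM in the Zelnorm tumours. Of 7 macrophage genes 4 lay higher and 3 lower (median log2 fold change 0.06; 0 called), with sums of 2815 to 3748 CPM in the controls and 3774 to 4001 CPM in the Zelnorm tumours. The lysozyme gene Lyz2, named for its values, made up much of that sum, at 1534 ± 243 and 2144 ± 273 CPM (log2 0.48, SE 0.20), while Csf1r, the receptor of a macrophage growth factor, was at 513 ± 83.5 and 471 ± 15.7 CPM. Schwann cell genes summed to 91.2 to 182 and 85.1 to 153 CPM. Of 7 keratin genes of skin and hair 2 passed the count filter, and their sum was 15.4 to 22.0 and 15.9 to 33.5 CPM. The part of these lists in the values of the 10 genes was not tested.

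The human table also held counts for the symbols of all 10 genes, and no source used here says how reads were divided between the tables. Per 100 mouse counts of the same symbol and tumour, the human table held 1.95 to 2.50 counts for Pdgfrb, 4.96 to 10.2 for Rgs5, 8.86 to 17.0 for Myh11 and 8.35 to 21.2 for Kcnj8. For these 4 genes most counts were thus in the mouse table. For Cspg4 the human table held slightly more, 106 to 152 per 100, and for Notch3 far more, 490.4 to 1356. Acta2 had the narrowest range of the 10, 48.6 to 52.4 human counts per 100 mouse counts, or 1.08 times from the lowest to the highest tumour. Pdgfrb with 1.28 times and Cspg4 with 1.43 times came next, and Tagln ran from 51.4 to 101. Abcc9 ran from 15.8 in MBZ_254 to 74.7 in MBZ_257, over 4.74 times, and these were the tumours with its highest and lowest mouse levels. The mouse count is the divisor, so a high mouse count by itself lowers this value. Human ABCC9 was at 7.24 CPM in MBZ_254 and 6.55 CPM in MBZ_257. Cnn1 spanned 7.53 times, on 1 to 6 human counts. Whether the near-constant share of Acta2 comes from reads that fit both species was not tested. Whether the mouse counts of Notch3 and Cspg4 include reads of the human tumour cells was not tested either.

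**Figure D5:**
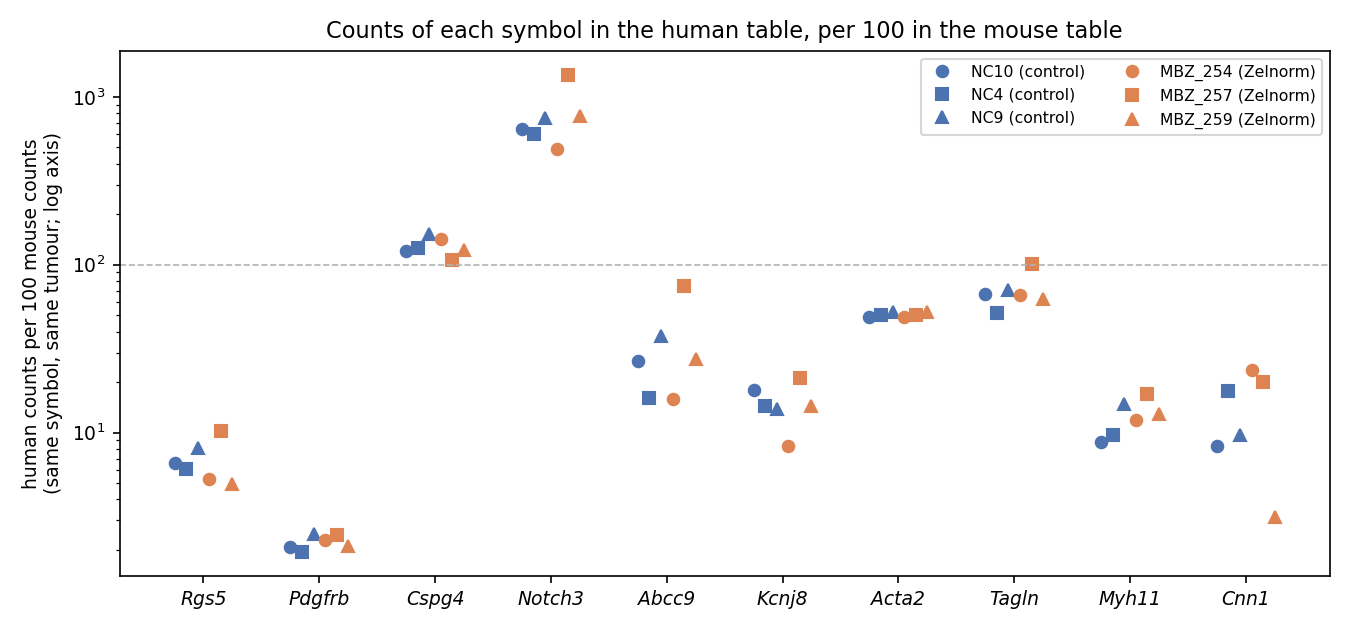
Counts of the human table per 100 counts of the mouse table for the same symbol in the same tumour, on a log axis, with the dashed line at 100. Acta2 has 6 nearly equal points between 48.6 and 52.4, Notch3 lies above the line at 490.4 to 1356 and Pdgfrb lies lowest at 1.95 to 2.50.

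Tested within the human table, 0 of the 9 symbols that passed its count filter were called (0% of 18820 human genes). CNN1, with 1 to 6 counts, did not pass the filter. As in the mouse table, TAGLN was the one symbol whose groups did not overlap (4.82% of tested human genes), at 34.0, 32.3 and 30.2 CPM of the human table in the controls and 60.0, 38.5 and 38.6 CPM in the Zelnorm tumours. The 3 Zelnorm tumours lay above all controls for 2.52% of tested human genes. Its log2 fold change was 0.51 (SE 0.18, unadjusted p = 0.0171, edgeR adjusted p = 1.00; 1.31% of human genes had an unadjusted p under 0.05). Without MBZ_254 it was 0.26. Both tables were read from the same tumours, and whether the TAGLN counts include reads that fit both species was not tested. NOTCH3 was at 329 ± 59.3 and 343 ± 27.7 CPM and CSPG4 at 15.2 ± 1.36 and 17.3 ± 7.18 CPM.

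Ligands that tumour cells could offer to mural cells were read in the human table too. How reads were divided between the tables is not known. PDGFB had 194 to 312 human and Pdgfb 360 to 575 mouse counts per tumour. On the CPM scale both were highest in MBZ_254, while PDGFB was lowest in NC9 (5.92 CPM) and Pdgfb in MBZ_259 (59.2 CPM). Whether the human counts of these ligands include reads that fit both species was not tested. PDGFB was at 7.76 ± 1.61 CPM in the controls and 8.24 ± 3.86 CPM in the Zelnorm tumours, and PDGFC at 4.22 ± 0.46 and 4.32 ± 2.04 CPM. PDGFA was at 32.4, 60.5 and 36.3 CPM in the controls and 86.7, 61.8 and 37.3 CPM in the Zelnorm tumours, so that the groups overlapped (log2 0.52, SE 0.30). PDGFD was at 10.6 ± 2.84 and 9.97 ± 5.24 CPM. The Notch ligands JAG1 and DLL4 were at 10.7 ± 1.65 and 8.10 ± 2.70 CPM in the controls and at 11.2 ± 2.21 and 8.50 ± 2.33 CPM in the Zelnorm tumours. None of these genes passed edgeR's test (adjusted p = 1.00 each).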

How the data were processed

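RNA of 6 tumours was sequenced from TruSeq libraries of total RNA, per the labels' protocols. The authors deposited a mouse and a human table of estimated counts, not scaled (27.0% of mouse and 38.0% of human values above 0 were not whole). HISAT2, StringTie, DESeq2, edgeR, GRCh38 and GRCm38 are listed, per the submitters' processing notes, with no versions or roles. Columns were tied to a group by their prefix, not to a replicate. The test was planned for counts and the estimated counts were rounded to whole numbers first. Rows without a gene name (856 mouse, 574 human; 0.317% to 0.518% of a library's counts) were left out. Human libraries held 24602177 to 39278194 counts.

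Each table was fitted whole with edgeR 4.0.16 (R 4.3.3; filterByExpr, TMM, quasi-likelihood test, two-sided, Benjamini-Hochberg, called under 0.05). The 95% interval is the log2 fold change ± a t quantile times its SE, which was derived from the F statistic. CPM uses TMM-scaled totals. Alternatives were RLE scaling, no count filter, DESeq2 1.42.0, limma-voom 3.58.1, skeletal muscle genes left out of totals, and each tumour left out. The fit was tested on simulated data. Coordinates and exon lengths come from GENCODE vM21, promoters from RefSeq. The 10 genes and the lists were chosen with earlier results of these data known. Genes named outside the 10 come from the 3 of each list with the highest mean CPM, not all of which are named. Others are the nearest profiles and fixed human ligands. The rest are named for their role or, where said, for their values.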

Additional observations from a re-analysis of the deposited data

How the results depend on the processing

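No member passed the threshold under any of the 11 alternatives to the mouse fit (110 values, lowest adjusted p = 0.75), and 93 of the 110 log2 fold changes kept their sign. Before adjustment, 4 of the 110 had a p under 0.05. For Tagln the unadjusted p was 0.0350 in DESeq2 and 0.0327 in edgeR without MBZ_257. In edgeR it was 0.0498 for Cspg4 without NC10 and 0.00558 for Kcnj8 without MBZ_254. The count of called mouse genes was 0 in the main test, 2 without the count filter (both lower) and 6 with DESeq2 (1 higher, 5 lower), and it was 0 with every single tumour left out. With limma-voom the log2 fold change turned to -0.0063 for Pdgfrb, -0.081 for Abcc9 and -0.18 for Kcnj8; the cause was not tested. With 1 tumour left out in turn, the values ranged from -0.24 to 0.19 for Rgs5, -0.22 to 0.17 for Pdgfrb, -0.29 to 0.36 for Abcc9, -0.89 to 0.40 for Kcnj8, -0.080 to 0.16 for Acta2 and -0.37 to 0.10 for Myh11, all of which changed sign. Those of Cspg4 (0.19 to 0.43), Tagln (0.24 to 0.42), Notch3 (-0.24 to -0.01) and Cnn1 (-0.42 to -0.08) did not.

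The median over the 10 genes ranged from -0.21 to 0.15 with 1 tumour left out. The median of all tested genes ranged from -0.01 to 0.02. The ratio of pericyte to endothelial genes (log2 difference 0.10) ranged from -0.09 to 0.33. Of the human values, 43 of 54 kept their sign. The sign changed for RGS5 (-0.50 to 0.017), PDGFRB (-0.43 to 0.37), CSPG4 (-0.13 to 0.47) and NOTCH3 (-0.052 to 0.20). It also changed for ACTA2 (-0.28 to 0.25) and MYH11 (-0.072 to 0.41). The sign held for ABCC9 (0.07 to 0.30), KCNJ8 (-1.02 to -0.09) and TAGLN (0.26 to 0.62). No paired analysis was possible because the columns carry no replicate number of the labels. The number of tumours limits precision: the 95% interval of Kcnj8 spans log2 fold changes of -1.10 to 1.24.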
